A study of Mus musculus with 4 samples.

Results

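The members are 7 CXC chemokine genes of the mouse, Cxcl9, Cxcl10, Cxcl11, Cxcl12, Cxcl13, Cxcl14 and Cxcl16, taken by name from 24078 gene symbols or unnamed accessions after the expression values of all transcript entries of a symbol were added. Bone marrow-derived macrophages of C57BL/6 mice were wild type (Batf2+/+, here WT) or lacked the transcription factor gene Batf2 (Batf2-/-, here KO). Bone marrow was cultured for 6 days with GM-CSF at 10 ng/ml, a growth factor that also supports dendritic cells and granulocytes, and adherent cells were kept. Per the labels all cultures had 4 h of interferon-gamma (10 ng/ml), followed by 0 h or 3 h of lipopolysaccharide (LPS, 100 ng/ml), a cell wall component of Gram-negative bacteria. The age and number of mice, the deleted part of Batf2 and the number of founding lines were not given in the sources used here. Each of the 4 groups, both genotypes at both times, has 1 RNA-seq library, so no test was possible and no group has a spread between cultures.

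CXC chemokines are small secreted proteins that guide leukocytes through G protein-coupled receptors. Cxcl9, Cxcl10 and Cxcl11 are induced by interferons, in many cells together with NF-kappaB, and draw activated T cells and natural killer cells through the receptor Cxcr3. Cxcl12, Cxcl13 and Cxcl14 are made mainly at rest, by stromal and epithelial cells: Cxcl12 retains haematopoietic cells in bone marrow through Cxcr4, Cxcl13 brings B cells into follicles through Cxcr5, and Cxcl14 is a homeostatic chemokine of epithelia and other tissues. Cxcl16 is made as a membrane protein of macrophages and dendritic cells, binds Cxcr6 and is also a scavenger receptor for oxidised lipoprotein.

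Levels are given as FPKM, read density per transcript length, scaled to each library's mapped reads, so that levels of different genes can be set side by side. Intervals in parentheses are 95% intervals that keep the relative width of the deposited ones and are placed on the FPKM. They cover counting and read assignment within a library, and none of the variation from culture to culture. A difference is the first library minus the second on the log2(FPKM + 1) scale, where low genes show a compressed change. It passed the size rule when its size was 1 or more (2-fold), either library had 1 FPKM or more, all entries had the status OK and the deposited intervals did not overlap. Against the shallowest library, WT at 3 h, the others were 1.22 to 1.51 times as deep. Cxcl9 is a standard target of interferon-gamma, and its level under 1 FPKM in both libraries at 0 h goes against their label as treated with that cytokine. What those cultures had received was not tested, so in the differences with time the parts of LPS and of interferon-gamma cannot be told apart. Batf2 itself was lower in KO at both times, at 0.26 against 2.63 FPKM at 0 h and 10.1 against 234.3 FPKM at 3 h. All 10 macrophage markers, among them Csf1r, Adgre1 and Lyz2, had at least 1 FPKM in the 4 libraries. Genes of dendritic cells and neutrophils were found as well. The 10 dendritic cell markers summed to 506 to 624 FPKM, most of it Itgax (457 to 564), with 3 or 4 of them under 1 FPKM in each library. The 10 neutrophil markers with an entry summed to 3596 to 8779 FPKM. The 7 B cell markers were under 1 FPKM in all libraries, and of the 8 T and natural killer cell markers only Cd4 reached 1 FPKM. In bulk RNA, fewer cells that make a transcript and less transcript per cell cannot be told apart.

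The interferon-inducible genes Cxcl9 and Cxcl10 were near the detection floor at 0 h and among the most abundant transcripts at 3 h. Cxcl9 had 0.62 FPKM in WT (0.44 to 0.81) and 0.12 in KO (0.057 to 0.19) at 0 h, and 1249 in WT (1237 to 1260) and 1058 in KO (1049 to 1067) at 3 h. Both libraries at 3 h thus lay far above both at 0 h. Cxcl10 had 1.11 FPKM in WT (0.65 to 1.58) and 1.20 in KO (0.72 to 1.68) at 0 h, and 1945 in WT (1917 to 1973) and 1801 in KO (1781 to 1820) at 3 h. Among genes with status OK, Cxcl10 ranked 26 of 23822 in WT and 30 of 23825 in KO at 3 h, and Cxcl9 ranked 43 and 51.

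The difference between 3 h and 0 h was close for the pair. In WT it was 9.59 (interval 9.42 to 9.75) for Cxcl9 and 9.85 (9.52 to 10.17) for Cxcl10, and in KO it was 9.88 (9.79 to 9.97) and 9.68 (9.36 to 10.00). As ratios of FPKM, Cxcl9 was 2002-fold higher at 3 h in WT (1472 to 2722) and 8509-fold higher in KO (4615 to 15691), and Cxcl10 was 1750-fold (1119 to 2737) and 1501-fold higher (980 to 2300). The larger ratio of Cxcl9 in KO rests on its lower level at 0 h, where the width of the deposited interval corresponds to 13 reads against 45 in WT. Between genotypes at 0 h, Cxcl9 had a difference of -0.53 and was under 1 FPKM in both libraries, so it was not compared by the size rule. The interval of its ratio, 5.02-fold lower in KO, ran from 2.53 to 9.95.

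At 3 h, Cxcl9 was 1.18-fold lower in KO (1.17 to 1.19) and Cxcl10 1.08-fold lower (1.06 to 1.10), with intervals that did not overlap but differences of -0.24 and -0.11 that did not pass the size rule. The median of all 9802 genes compared at 3 h was -0.07. With the libraries rescaled to the median ratio of expressed genes, the differences were -0.17 and -0.04. Cxcl10 had a higher level than Cxcl9 in each of the 4 libraries, with ratios of 1.78 in WT and 9.65 in KO at 0 h, and of 1.56 and 1.70 at 3 h.

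Cxcl11, the other Cxcr3 ligand gene of this cluster, is a transcribed pseudogene in the RefSeq table of this C57BL/6J assembly, and C57BL/6 mice are known to lack the functional protein. Its noncoding entry was listed at 0 in both libraries at 0 h, and had 12.2 FPKM (10.8 to 13.5) in WT and 12.5 FPKM (11.4 to 13.7) in KO at 3 h. The transcript was therefore found at 3 h in both genotypes, with overlapping intervals and a ratio of 1.03 between them (0.89 to 1.19). The other entry at the locus, of coding type, was listed at 0 with the status LOWDATA in all 4 libraries. The size rule leaves Cxcl11 out for that status. When entries of any status are kept, its differences of 3.72 in WT and 3.76 in KO pass.

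These 3 genes lie side by side on the reverse strand of chromosome 5 (GRCm38): Cxcl9 at 92321331 to 92328079, Cxcl10 at 92346638 to 92348889 and Cxcl11 at 92359544 to 92363296. Cxcl10 and Cxcl11 lie inside the span of Art3, an ADP-ribosyltransferase gene on the forward strand, from 92331799 to 92414628. Art3 had 0.025 to 0.27 FPKM in the 4 libraries. The libraries are strand-specific per the labels, but the use of strand in counting was not given in the sources used here.

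Because Cxcl9 and Cxcl10 differed together, the 250 bases before their annotated start sites are shown, read 5′ to 3′ on the gene's strand, from RefSeq's GRCm38.p6 start sites. Capitals mark letter matches, on either strand, to the interferon-stimulated response element (ISRE: GAAA, any 2 bases, then GAAA), the interferon-gamma activated site (GAS, TTCNNNGAA), the kappaB site of NF-kappaB (GGGA, any 4 bases, then CC) and the AP-1 site (TGANTCA), the kind of site that Batf family proteins can bind with Jun partners.
Cxcl9, chr5:92328080-92328329, reverse strand: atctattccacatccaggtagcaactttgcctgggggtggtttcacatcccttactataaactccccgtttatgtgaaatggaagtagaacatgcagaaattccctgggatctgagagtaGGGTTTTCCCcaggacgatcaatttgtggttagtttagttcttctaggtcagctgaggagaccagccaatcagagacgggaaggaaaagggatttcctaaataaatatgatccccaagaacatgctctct
Cxcl10, chr5:92348890-92349139, reverse strand: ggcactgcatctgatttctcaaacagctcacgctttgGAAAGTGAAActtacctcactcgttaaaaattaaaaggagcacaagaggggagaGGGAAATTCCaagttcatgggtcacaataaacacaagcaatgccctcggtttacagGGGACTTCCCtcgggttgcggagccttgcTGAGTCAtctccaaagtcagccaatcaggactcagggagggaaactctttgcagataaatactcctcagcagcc
The Cxcl10 window holds 1 ISRE match (213 to 204 bases before the start), 2 kappaB matches (159 to 150 and 103 to 94) and 1 AP-1 match (74 to 68), none of which overlap. The Cxcl9 window holds 1 kappaB match on the opposite strand (130 to 121) and no match to the other letters. Among 32851 promoter windows of the same length, 2.98% held the ISRE letters, 7.02% GAS, 17.6% kappaB and 6.75% AP-1, and 0.387% held both ISRE and kappaB. A match of letters is a description and not a shown binding site, and the lack of a match does not show the lack of a site.

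**Figure D1:**
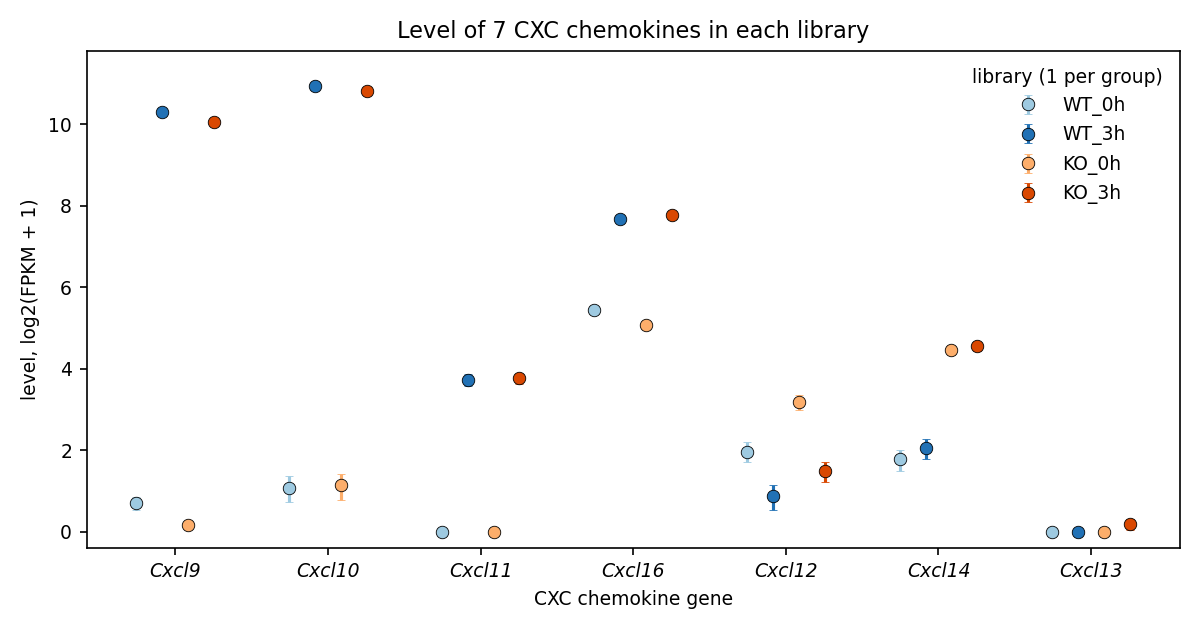
Level of each gene on the log2(FPKM + 1) scale (vertical axis) in the 4 libraries, with moved deposited 95% intervals as bars and 1 point per library. Cxcl9 and Cxcl10 lie at 1.14 or less at 0 h and above 10 at 3 h in both genotypes, whereas the points of Cxcl14 separate by genotype (22.3 against 3.13 FPKM at 3 h).

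**Figure D2:**
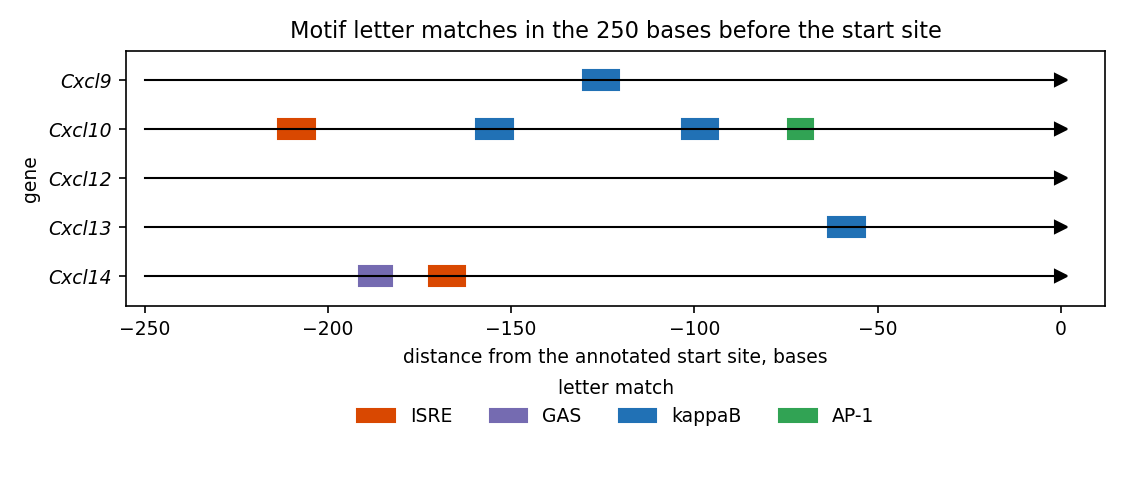
Positions of motif letter matches in the 250 bases before the start of 5 members, for Cxcl14 the start of its entry; the horizontal axis is the distance from the start in bases. Cxcl10 holds ISRE, kappaB and AP-1 letters, Cxcl9 and Cxcl13 hold 1 kappaB match each, Cxcl14 holds ISRE and GAS letters and Cxcl12 holds none of the 4.

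Cxcl16 was expressed in all 4 libraries and was higher at 3 h in both genotypes. It had 42.2 FPKM (40.1 to 44.3) in WT and 32.6 (30.9 to 34.3) in KO at 0 h, and 203.8 (198.0 to 209.6) in WT and 217.9 (213.3 to 222.5) in KO at 3 h. The libraries at 3 h both lay above those at 0 h, by 2.25 in WT (4.83-fold, 4.56 to 5.12) and by 2.70 in KO (6.68-fold, 6.31 to 7.07). Between genotypes the order turned with time: KO was 1.29-fold lower at 0 h (1.20 to 1.39) and 1.07-fold higher at 3 h (1.03 to 1.11), with separate intervals at each time, and neither passed the size rule. The gene lies on chromosome 11 at 70454389 to 70459984 on the reverse strand, and its 5′ end overlaps Zmynd15, which was listed at 0 in all libraries.

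Over all members, 3 of 7 were higher at 3 h past the size rule in WT and in KO, Cxcl9, Cxcl10 and Cxcl16 in each. Of all genes compared, 7.54% were called higher in WT and 7.84% in KO, and 30.7% and 35.8% in either direction. Cxcl12 was the 1 member called lower in each, where 23.2% of genes were called lower in WT and 28.0% in KO. The median difference of all genes was -0.54 in WT and -0.64 in KO, and rescaling to the median ratio moved these by 0.33 and 0.40. With that rescaling higher genes made up 44.2% of the calls in WT, in place of 24.5%, and 44.9% in KO, in place of 21.9%. The 3 higher members kept their calls.

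**Figure D3:**
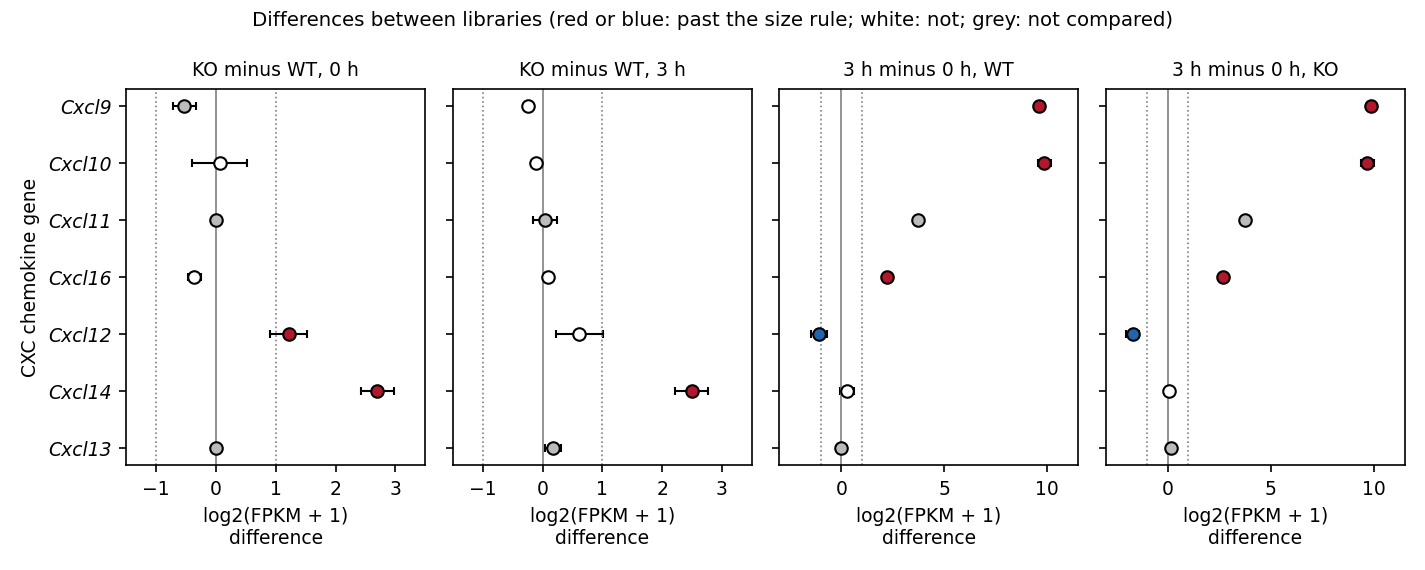
Differences between libraries on the log2(FPKM + 1) scale for each member, with intervals propagated from the deposited ones and dotted lines at the limits of the size rule. Cxcl14 is past the limit between genotypes at both times (2.70 and 2.497), and Cxcl9, Cxcl10 and Cxcl16 are past it with time in both genotypes; the scales of the left and right pairs of panels differ.

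Cxcl12, the ligand of Cxcr4, was low, higher in KO than in WT and lower at 3 h than at 0 h. Its 3 entries summed to 2.90 FPKM (2.24 to 3.56) in WT and 8.03 (6.87 to 9.20) in KO at 0 h, and to 0.83 (0.45 to 1.20) in WT and 1.79 (1.31 to 2.28) in KO at 3 h. KO at 0 h stood above the other libraries and WT at 3 h was the lowest. KO was 2.77-fold higher at 0 h (2.11 to 3.64), a difference of 1.21 that passed the size rule, and that did not with a pseudocount of 5 (0.72) or a rule of 3-fold. At 3 h it was 2.17-fold higher (1.24 to 3.79), with separate intervals but a difference of 0.61 that did not pass. Of the 7 members, Cxcl12 and Cxcl14 were the 2 called higher in KO at 0 h, and none was called lower. Of all genes compared there, 1.69% were called, 1.32% as higher and 0.369% as lower.

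With time, Cxcl12 was 3.51-fold lower at 3 h in WT (2.05 to 6.01) and 4.48-fold lower in KO (3.27 to 6.14), differences of -1.09 and -1.69. The call in WT ended with rescaling to the median ratio, at -0.87, and also with a pseudocount of 5, a minimum of 5 FPKM, the highest entry in place of the sum, and a rule of 3-fold. In KO the rescaled difference was -1.33, and the call ended with a pseudocount of 5. Its receptor Cxcr4 was also lower at 3 h past the size rule in both genotypes, with 15.6 FPKM in WT and 21.7 in KO at 0 h against 2.14 and 2.67 at 3 h.

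The 3 Cxcl12 entries share their first exons and differ at the 3′ end. The shortest, which ends at the third exon and encodes the alpha form, held 69.9% to 82.4% of the summed FPKM, and the middle one, the beta form, 13.6% to 28.7%. The short entry had 2.07 FPKM in WT and 5.62 in KO at 0 h, and 0.64 and 1.48 at 3 h. The middle entry had 0.83 and 2.03 at 0 h, and 0.19 and 0.24 at 3 h. Both entries thus kept the order of the sum at 0 h, and the intervals of the middle entry overlapped between genotypes at 3 h. The longest entry, which encodes the gamma form, was listed at 0 in both WT libraries and had 0.38 FPKM (0.27 to 0.50) in KO at 0 h and 0.071 (0.027 to 0.11) at 3 h. Reads were divided among these overlapping entries by the authors' software, so the split is less certain than the sum. The gene lies on chromosome 6 at 117168535 to 117181368 on the forward strand.

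**Figure D4:**
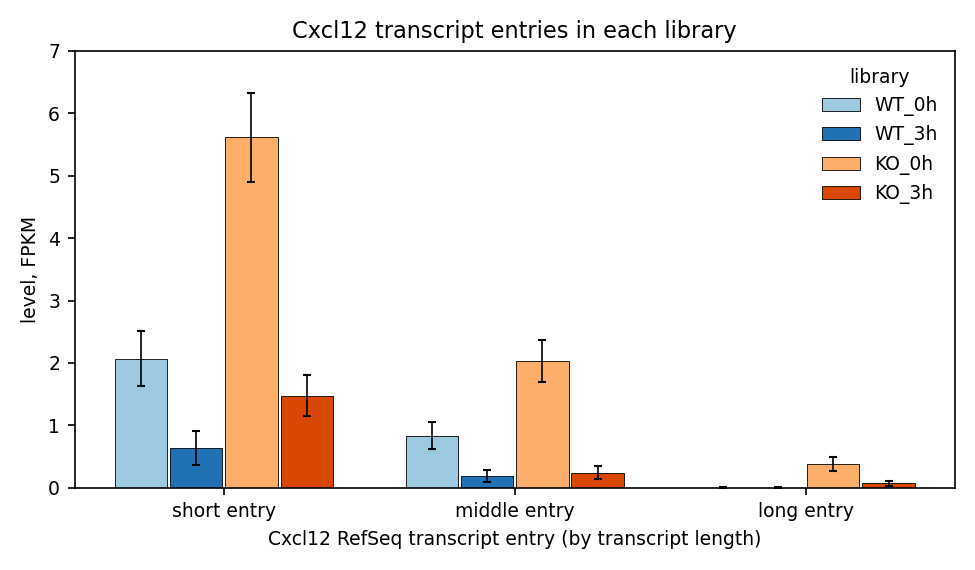
Level in FPKM (vertical axis, from 0) of the 3 Cxcl12 transcript entries in each library, with moved deposited 95% intervals. In the short entry KO at 0 h has the highest bar, at 5.62 FPKM, and the long entry is listed at 0 in both WT libraries.

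Cxcl14 had the largest difference between genotypes among the members and hardly differed with time. It had 2.41 FPKM (1.82 to 3.00) at 0 h and 3.13 (2.41 to 3.85) at 3 h in WT, and 21.1 (19.3 to 22.8) and 22.3 (20.5 to 24.1) in KO. Both KO libraries lay above both WT libraries, and within a genotype the intervals at 0 h and 3 h overlapped. KO was 8.75-fold higher at 0 h (6.72 to 11.4) and 7.13-fold higher at 3 h (5.57 to 9.13). These differences of 2.70 and 2.497 passed the size rule under every alternative of the processing that was run. At 3 h Cxcl14 was the 1 member called. Of all genes compared at 3 h, 1.42% were called, 0.724% as higher and 0.694% as lower. From 0 h to 3 h its differences were 0.28 in WT (-0.08 to 0.64) and 0.08 in KO (-0.08 to 0.24), beside medians over all genes of -0.54 and -0.64. With rescaling they were 0.55 and 0.53.

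The single entry of Cxcl14 in the files lies on chromosome 13 at 56288643 to 56296551, on the reverse strand, and has 4 exons. RefSeq's span of the gene reaches farther, to 56296811, so the 250 bases before the start of the entry, 56296551, lie inside that span. That window is shown as the contrast to those of Cxcl9 and Cxcl10, with the same capitals.
Cxcl14, chr13:56296552-56296801, reverse strand: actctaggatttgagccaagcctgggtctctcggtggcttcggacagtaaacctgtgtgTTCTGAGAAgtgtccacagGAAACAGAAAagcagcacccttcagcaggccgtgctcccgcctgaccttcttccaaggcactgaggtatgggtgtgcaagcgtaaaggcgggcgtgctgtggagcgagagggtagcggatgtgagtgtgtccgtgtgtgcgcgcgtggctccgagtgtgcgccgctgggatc
It holds 1 GAS match (191 to 183 bases before the start of the entry) and 1 ISRE match (172 to 163), although Cxcl14 did not pass the size rule with time in either genotype. Matches to the ISRE and GAS letters searched were thus found in this window and not in that of Cxcl9. Only these fixed letters were searched, so the lack of a match does not show that the Cxcl9 window lacks an interferon element.

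Genes of connective tissue cells, which are known sources of Cxcl12 and Cxcl14, were also higher in KO. Of 12 stromal markers, 10 were compared at 0 h and all 10 were above 0, with a median of 0.82 against -0.00 over all genes. The 3 that passed the size rule were Bgn, a matrix proteoglycan, Sparc, a matrix glycoprotein, and Col3a1, a fibrillar collagen. Col3a1, Dcn and Pdgfrb reached 1 FPKM only in KO, so once compared they could only lie above 0. Lum (-0.01) and Pdgfra (0.44) were under 1 FPKM in both genotypes and were not compared. At 3 h, 8 of 9 were above 0, none passed, and the median was 0.48 against -0.07. Pdgfrb again reached 1 FPKM only in KO. Bgn had 17.0 FPKM in WT and 51.3 in KO at 0 h, and 20.1 and 30.8 at 3 h. Sparc had 11.4 and 33.1 at 0 h, and 11.3 and 22.5 at 3 h. The summed level of the 12 markers was 152.3 FPKM in WT and 248.8 in KO at 0 h, and 145.6 and 243.2 at 3 h. Pdpn, which encodes podoplanin, carried much of that sum, with 93.7 and 107.0 FPKM at 0 h, and 80.7 and 147.4 at 3 h. Without Pdpn, left out after its values were seen, the other 11 summed to 58.6 FPKM in WT and 141.8 in KO at 0 h, and to 64.9 and 95.9 at 3 h, so that their sum was lower at 3 h than at 0 h in KO and higher in WT. None of the 12 was listed at 0 in any library. In each library 2 to 5 of the 12 were under 1 FPKM, among them Lum, at 0.05 FPKM or less. The collagen genes Col1a1 and Col1a2 had 10.4 to 16.0 and 10.0 to 20.1 FPKM. From 0 h to 3 h no stromal marker passed the size rule in either direction. In KO 7 of the 10 compared were below 0, with a median of -0.36 (Bgn -0.72, Col3a1 -0.80), beside -1.69 for Cxcl12 and -0.64 over all genes. Of these, Col3a1 reached 1 FPKM only at 0 h. In WT 2 of 8 were below 0, with a median of 0.04, beside -1.09 for Cxcl12 and -0.54 over all genes. Neutrophil markers also stood higher in KO at 0 h (10 of 10 compared above 0, 5 past the rule, summed level 8779 against 3596 FPKM). Among the 5, Retnlg reached 1 FPKM only in KO, with 2.00 FPKM against 0.38 in WT. At 3 h 4 of 9 compared were above 0 and 5 below, with a summed level of 5104 against 5306 FPKM. Of these, 1 passed as higher in KO at 3 h, Mmp8, with 102.8 FPKM against 50.1 in WT. Ly6g, which was on that list, had no entry under its name. Of the other marker lists, 1 of 10 macrophage genes passed as higher in KO at each time (Marco at 0 h, Cd14 at 3 h). Of 10 dendritic cell genes, 7 were compared at each time and 1 passed as lower (Cd209a at 0 h, Clec9a at 3 h). Of 6 endothelial genes, 4 were compared at 0 h and 2 at 3 h. Emcn, which reached 1 FPKM only in KO, passed as higher at 0 h, and none passed at 3 h. Of 8 genes of mast cells, basophils and eosinophils, 6 were compared at 0 h and 5 at 3 h. Hdc passed as higher at 0 h. At 3 h Gata2, which reached 1 FPKM only in KO, passed as higher, and Prg2 and Epx passed as lower. Beside the counts of all these lists, 1.32% of all genes compared were called higher in KO and 0.369% lower at 0 h, and 0.724% and 0.694% at 3 h. The part of these cell types in the differences of Cxcl12 and Cxcl14 was not tested.

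**Figure D5:**
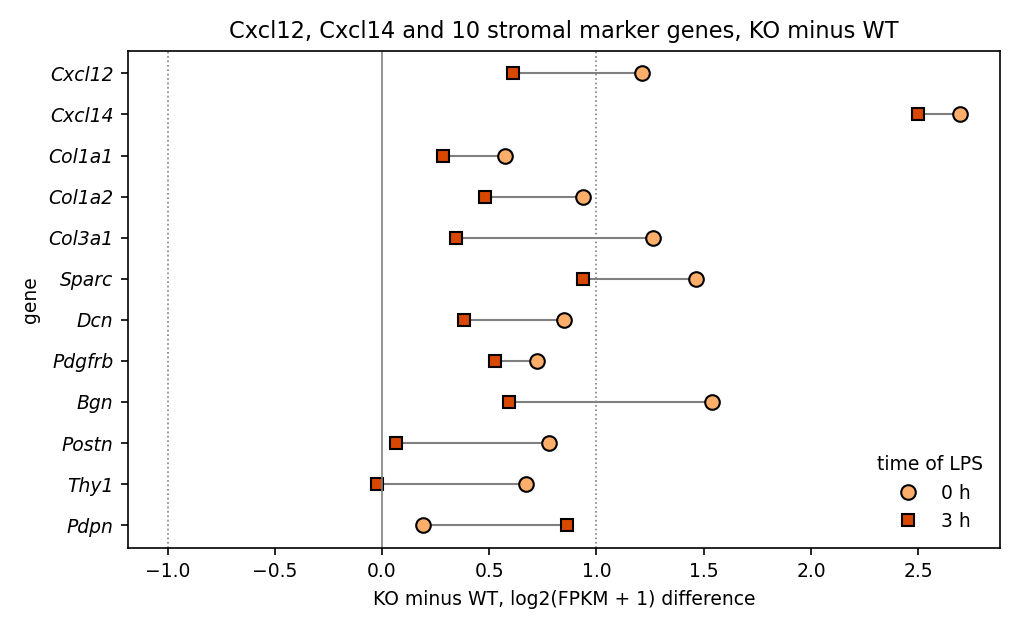
KO minus WT differences on the log2(FPKM + 1) scale for Cxcl12, Cxcl14 and the 10 stromal markers compared at 0 h, at 0 h (circles) and at 3 h (squares), with dotted lines at the limits of the size rule. All 10 markers lie above 0 at 0 h, Bgn the farthest at 1.54, and Cxcl14 lies beyond all of them at both times. Col3a1, Dcn and Pdgfrb were compared at 0 h only through their level in KO.

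Cxcl13, the B cell attractant, was listed at 0 in 3 libraries and had 0.13 FPKM (0.029 to 0.23) in KO at 3 h, a width that corresponds to 7 reads. It stayed under 1 FPKM in all libraries and was compared nowhere. It lies on chromosome 5 at 95956939 to 95961068 on the forward strand, apart from the cluster of Cxcl9.

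Among the 7 members the order of levels depended on time. At 0 h Cxcl16 was the highest in both genotypes, with 85.7% of the summed FPKM of the members in WT and 51.7% in KO. In WT it was followed by Cxcl12 and Cxcl14, whose intervals overlapped, and then by Cxcl10 and Cxcl9, whose intervals also overlapped, with Cxcl11 and Cxcl13 listed at 0. In KO Cxcl14 came second with 33.4% of the sum and Cxcl12 followed, with separate intervals. At 3 h the order in both genotypes was Cxcl10, Cxcl9, Cxcl16, then Cxcl11 and Cxcl14, with Cxcl14 above Cxcl11 in KO and below it in WT, then Cxcl12 and Cxcl13. Cxcl10 and Cxcl9 made up 57.0% and 36.6% of the sum in WT and 57.8% and 34.0% in KO.

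Of the 15 CXC ligand genes, the members held 24.5% of the summed FPKM in WT and 15.9% in KO at 0 h, and 54.3% and 43.8% at 3 h. The remaining ligands are mainly attractants of neutrophils and platelet chemokines. Of those 8, 4 were compared between genotypes at 0 h and 6 at 3 h. None passed the size rule as lower in KO, and 2 passed as higher at each time: Cxcl3 and Pf4 at 0 h, Cxcl1 and Pf4 at 3 h. Of all genes compared, 1.32% were called higher and 0.369% lower at 0 h, and 0.724% and 0.694% at 3 h. Pf4, platelet factor 4, had 121.3 FPKM in WT and 259.7 in KO at 0 h, and 108.4 and 281.6 at 3 h. As with Cxcl14, both KO libraries of Pf4 stood above both WT libraries, and neither genotype passed the rule with time. At 3 h Cxcl1, an attractant of neutrophils, was 2.36-fold higher in KO (2.25 to 2.48), while Cxcl9 and Cxcl10 were slightly lower.

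The receptors for these ligands were mostly under 1 FPKM. Cxcr3, the receptor of Cxcl9, Cxcl10 and Cxcl11, had 0.11 to 0.24 FPKM in the 4 libraries, and Cxcr6, the receptor of Cxcl16, 0.040 to 0.13. Cxcr5, the receptor of Cxcl13, had 0.032 FPKM in WT and 0.084 in KO at 0 h, and 0.56 and 0.40 at 3 h. The atypical receptors, which bind chemokines without signalling through G proteins, were low as well: Ackr3 had at most 0.27 FPKM, Ackr1 at most 0.28, and Ackr4 was listed at 0 throughout. Cxcr4 was the 1 receptor of 7 that could be compared. It did not pass the size rule between genotypes at 0 h, at 0.44, or at 3 h, at 0.22.

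Proteases that cut or shed these chemokines were expressed. Adam10 and Adam17, which release Cxcl16 from the membrane, had 35.7 to 58.5 and 52.9 to 105.1 FPKM, and neither passed the size rule in a comparison. The 7 genes listed for chemokine processing include Qpct, which is not a protease gene. Dpp4, another of the 7, was low, at 0.23 to 1.28 FPKM, and passed in no comparison. Mmp12 was the most abundant of the 7, at 2420 to 4142 FPKM, and also passed in none. At 0 h 1 of the 6 compared was called higher in KO, where 1.32% of all genes were. This was Mmp9, a gelatinase that cleaves several CXC chemokines, with 13.7 FPKM in KO and 6.06 in WT. At 3 h it had 4.17 and 4.14. From 0 h to 3 h none of the 7 passed in WT, and 2 of 6 compared passed as lower in KO: Mmp9 (-1.504) and Qpct, a glutaminyl cyclase (-1.12). In WT these 2 genes had -0.46 and -0.83. For Mmp9 the KO minus WT contrast of these differences was -1.05, past the size rule, where 1.44% of all genes were called lower. Of all genes compared in KO, 28.0% were called lower, and the median difference was -0.64.

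Many genes of the signalling pathways that drive Cxcl9 and Cxcl10 were also higher at 3 h. None of those compared differed between genotypes past the size rule, where 1.69% of all genes did at 0 h and 1.42% at 3 h. Of 16 genes of interferon signalling, 15 were compared with time, with medians of 1.496 in WT and 1.475 in KO. In each genotype 8 passed as higher at 3 h, while 1 passed as lower in WT and 2 in KO. Of all genes compared, 7.54% were called higher in WT and 7.84% in KO, and 23.2% and 28.0% were called lower. The largest differences were those of the interferon regulatory factors Irf7 (5.21 in WT and 5.43 in KO), Irf1 (4.97 and 4.77) and Irf8 (4.31 and 4.01) and of the interferon-beta gene Ifnb1 (4.26 and 4.43). Ifnb1 had 19.5 FPKM in WT and 20.6 in KO at 3 h, and Ifng, which encodes interferon-gamma, stayed at 0.05 FPKM or less. Ifngr1, a chain of the interferon-gamma receptor, was lower at 3 h in both (-1.40 and -1.34). Irf3, a kinase-activated factor upstream of Ifnb1, was also lower in both (-0.83 in WT and -1.22 in KO) and passed in KO. The medians over all genes were -0.54 in WT and -0.64 in KO. Of 10 NF-kappaB genes, 8 passed as higher in each genotype, with medians of 2.11 and 2.13, led by Nfkbiz, an inducible co-regulator (6.28 and 6.36). At 0 h the medians between genotypes were -0.00 and 0.03 and at 3 h 0.04 and 0.17.

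Genes of the lymphotoxin axis, which sustains Cxcl13 in lymphoid organs, were expressed, and Cxcl13 stayed under 1 FPKM. A link between the axis and Cxcl13 in these cultures was not tested. Of the 7 genes of the axis, 3 passed as higher at 3 h in WT, Tnf (5.93), Lta (3.95) and Ltb (1.29), and 2 in KO, Tnf (6.10) and Lta (3.37). In each genotype 2 of the 7 were below 0, and none passed as lower. Of all genes compared, 7.54% were called higher in WT and 7.84% in KO, and 23.2% and 28.0% were called lower. Ltb had 2.62 FPKM in WT and 4.90 in KO at 0 h, and 7.85 and 5.55 at 3 h. Its difference with time was lower in KO than in WT by 1.14, past the size rule for such a contrast. For that contrast 1.44% of all genes were called lower.

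For the members themselves, the difference with time was compared between genotypes as KO minus WT. None of the 7 reached 1 in size, and of all genes 2.37% were called, 0.926% as higher and 1.44% as lower. Cxcl12 had -0.60 (-1.10 to -0.10) and Cxcl16 0.46 (0.34 to 0.57), with intervals that excluded 0. Cxcl9 had 0.29 (0.10 to 0.48), a sign that turned with a pseudocount of 5, to -0.10. For Cxcl10 and Cxcl14 the intervals held 0, at -0.17 (-0.63 to 0.29) and -0.20 (-0.59 to 0.19).

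The genes whose pattern over the 4 libraries was nearest to each member were found by the root mean square distance between log2(FPKM + 1) profiles, each centred on its own mean, among 7998 named genes with at least 5 FPKM in a library. Cxcl9 and Cxcl10 were each the nearest gene to the other, at a distance of 0.21, followed by Il6 (0.29 and 0.23) and Il12b (0.50 and 0.46), both cytokine genes of activated macrophages. Nearest to Cxcl11 were Slc7a2, a transporter of cationic amino acids (0.03), Eif2a (0.06, listed at 0 at 0 h in both genotypes) and Oas3, an interferon-induced synthetase (0.07). For Cxcl16 they were Arl5c (0.04), Nectin2 (0.04) and Slc2a6 (0.06). For Cxcl12 they were Igfbp4, an insulin-like growth factor binding protein (0.16), Id1, an inhibitor of differentiation (0.17), and Epb41l4aos (0.20). Cxcl14 had no gene as near: the first were Loxl3, a lysyl oxidase relative that was listed at 0 in both WT libraries (0.26), Zfp971 (0.55) and Tnfaip1 (0.60). With 4 libraries a short distance describes these values alone.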

How the data were processed

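RNA-seq was available for 4 libraries, 1 for each genotype and time. The deposited values are FPKM per RefSeq accession with a lower and an upper limit, in the layout of a Cufflinks table per the file headers. Per the submitters' processing notes, TopHat2, Bowtie, SAMtools and Cufflinks were used with mm9; their versions were not given in the sources used here. Of 33433 entries, 96.1% fell within the GRCm38 span of the gene they name, so positions are given on GRCm38. The files hold no read totals; relative depth was the median ratio of upper limits over 4670 entries listed at 0 in all libraries.

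Of 33841 entries, 33433 were named from RefSeq accessions, 191 from GENCODE, 126 by position (overlap of at least 80%) and 91 kept their accession. FPKM and limits were added per symbol. In each library 1552 to 2076 entries, among them Cxcl9 and Cxcl10 at 3 h and Cxcl14 in KO, had an FPKM beyond the limits deposited with it, which is why intervals were moved; the cause was not tested. The reads behind a value are those whose counting error alone would give the deposited width. No p-value was computed, since each group has 1 library. Members and lists were chosen with earlier results of these data known. Named genes were the members, their receptors, up to 4 members of each list past the size rule in a comparison, and the 3 genes nearest to each member; some stromal, signalling and other genes are named as examples. Python 3.11.15, numpy 2.4.6, pandas 2.3.3 and matplotlib 3.10.9 were used. Promoter windows came from RefSeq's table, which held 5 of the 7 members.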

Additional observations from a re-analysis of the deposited data

Results flagged for a closer look

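Cxcl16 was lower in KO at 0 h, with a difference of -0.36 on the log2(FPKM + 1) scale, and higher at 3 h, with 0.10, and the intervals of the genotypes were separate at each time. It is listed here because the genotypes stood in opposite order at the 2 times. With 1 library per group the difference was not tested.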

How the results depend on the processing

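No paired analysis was possible because each group holds 1 library, and no library could be left out for the same reason. Of the 2 members called higher in KO at 0 h, 1 (Cxcl14) was called with a pseudocount of 5 or a size rule of 3-fold. At 3 h, 2 were called (Cxcl12 and Cxcl14) with a pseudocount of 0.1 or a rule of 1.5-fold, in place of 1. For the difference between genotypes in the change with time, 1 member was called with a pseudocount of 0.1 (Cxcl9) and 1 with a rule of 1.5-fold (Cxcl12), in place of 0. With time, 3 to 5 members were called in WT and in KO under all settings, against 4. Naming entries by accession alone, an alternative chosen after seeing the data, added Cxcl11 to both. Of 245 alternative values of single differences, 199 lay inside the interval of the main value and 46 outside it. The 46 were 16 with a pseudocount of 0.1, 18 with a pseudocount of 5 and 12 with rescaling. The filters on low values cannot alter a difference, so their 35 values each were inside by construction. All 35 were also inside with the highest entry and with naming by accession, which leave most members unchanged. No called member turned its direction, which a changed pseudocount cannot bring about between 2 libraries. Over all genes, calls ranged from 45 to 511 at 0 h (main 183), from 45 to 487 at 3 h (139), from 1225 to 6193 in WT with time (3328) and from 1398 to 6928 in KO (3923), with the fewest under a rule of 3-fold or a pseudocount of 5 and the most under a rule of 1.5-fold; for the difference between genotypes in the change with time they ranged from 115 to 741 (263). Members under 1 FPKM in both compared libraries were left out of the calls by the chosen minimum, even where intervals were separate, as for Cxcl9 at 0 h.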
